A study of Homo sapiens with 17 samples.

Results

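The cytosolic ribosomal protein genes are the protein-coding genes that encode the protein parts of the ribosome outside mitochondria. Members were chosen by symbol, as RPL or RPS followed by a number with an optional paralog suffix, or as RPSA, RPLP0, RPLP1 or RPLP2, and 2 matching genes on chromosome Y were left out. The rule gave 82 genes of 58302 identifiers in the count tables, 50 of the large subunit (RPL) and 32 of the small subunit (RPS). All 82 were listed in the 13 libraries with read counts, but only RPSA was listed in the 4 libraries of sorted cells.

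H1, a human embryonic stem cell line in wide use, was differentiated to endothelial cells, and those positive for an eGFP reporter of the transcription factor GATA2, which acts in blood-forming endothelium, were followed as blood cells arose. They had been derived with or without vitamin C (Vc+ and Vc- in the labels), which is a cofactor of histone and DNA demethylating enzymes. Re-plated cells, labelled as mixtures of endothelial and hematopoietic cells from 24 h on, were sequenced at 0, 24, 36, 48 and 60 h with and without vitamin C, in 1 library for each combination. Further libraries, all with vitamin C, came from cells in suspension at 60 h and at 96 h and from adherent cells at 60 h, again 1 each, and the sorted cells were read in 2 libraries with and 2 without vitamin C. All libraries came from 1 cell line, and the labels do not say whether libraries came from separate cultures. With 1 library for each condition and time, a p-value of the course measures departures among single libraries and not the variation between cultures.

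Each ribosome holds a copy of nearly every such protein, and the messages of these genes are among the most abundant in dividing cells. In vertebrates most of them begin with a run of pyrimidines, the terminal oligopyrimidine (TOP) tract, through which growth signalling by mTOR controls their translation. Inherited loss of a copy of some members causes Diamond-Blackfan anaemia, in which red cell formation fails. Several members also have a paralog that is used in particular tissues, such as RPL3L in heart and skeletal muscle and RPL10L in testis.

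The starts of 9 members that the results below turn on are printed here, read from RefSeq promoters on GRCh38.p14 as 30 bases before and 20 bases from the annotated start on. Capitals mark a run of C and T that holds a C within 5 bases of the start and is at least 5 bases long, and a sequence without capitals has no such run there. The first 5 belong to members that were lower at 24 h than at 0 h and higher in suspended cells at 60 h than in adherent cells, and the last 4 to members that differed from most others in at least 1 comparison.
RPL13A: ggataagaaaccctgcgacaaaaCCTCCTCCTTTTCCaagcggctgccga
RPL3: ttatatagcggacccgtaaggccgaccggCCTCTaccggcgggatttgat
RPLP0: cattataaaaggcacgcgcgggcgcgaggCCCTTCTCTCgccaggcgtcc
RPL12: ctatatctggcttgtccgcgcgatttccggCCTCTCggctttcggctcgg
RPS24: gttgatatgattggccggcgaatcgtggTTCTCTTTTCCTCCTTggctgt
RPS19: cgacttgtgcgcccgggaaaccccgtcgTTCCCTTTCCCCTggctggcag
RPL28: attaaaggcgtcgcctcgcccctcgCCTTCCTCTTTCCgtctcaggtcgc
RPS26: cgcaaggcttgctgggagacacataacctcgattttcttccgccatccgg
RPS27L: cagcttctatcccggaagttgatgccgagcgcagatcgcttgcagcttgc

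These windows lie at chr19:49487578-49487627 (plus strand) for RPL13A, chr22:39319604-39319653 (minus) for RPL3, chr12:120201092-120201141 (minus) for RPLP0, chr9:127451387-127451436 (minus) for RPL12 and chr10:78033833-78033882 (plus) for RPS24. Those of RPS19 at chr19:41860225-41860274, RPL28 at chr19:55385902-55385951 and RPS26 at chr12:56041888-56041937 are on the plus strand, and that of RPS27L at chr15:63157458-63157507 is on the minus strand. A promoter entry was found for 65 of the 82 members. A tract was present in 58 of their 80 entries (72.5%), against 7408 of 35116 entries of all genes (21.1%). The letters ACTTCCG, searched on both strands, were in 27.5% of the members' entries and 6.83% of all entries, and AAGATGGC was in 7.5% and 2.89%. RPS26 and RPS27L were among the 15 members without a tract at the start, whereas RPS19 and RPL28, which also differed from most others, had tracts of 13 bases each.

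Most members were expressed at a high and even level. In CPM, the counts of a gene scaled to the total of its library, the median level over the 13 libraries ranged from 0 for RPL10L and RPL3L to 1288 for RPL4, and RPL3 (1287 CPM), RPLP0 (1138 CPM), RPS2 (889.9 CPM) and RPL15 were close behind. Levels per kilobase of the principal transcript were summarised over the 74 members with a median of at least 20 CPM. Their median was 482.4 CPM, with a range of 135.2 to 808.6 CPM between the lowest and highest 10 percent points. RPS24 was highest at 928.7 CPM per kilobase. Of the 74 members with a median of at least 20 CPM, 68 stayed within 2.5-fold between their lowest and highest library.

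**Figure D1:**
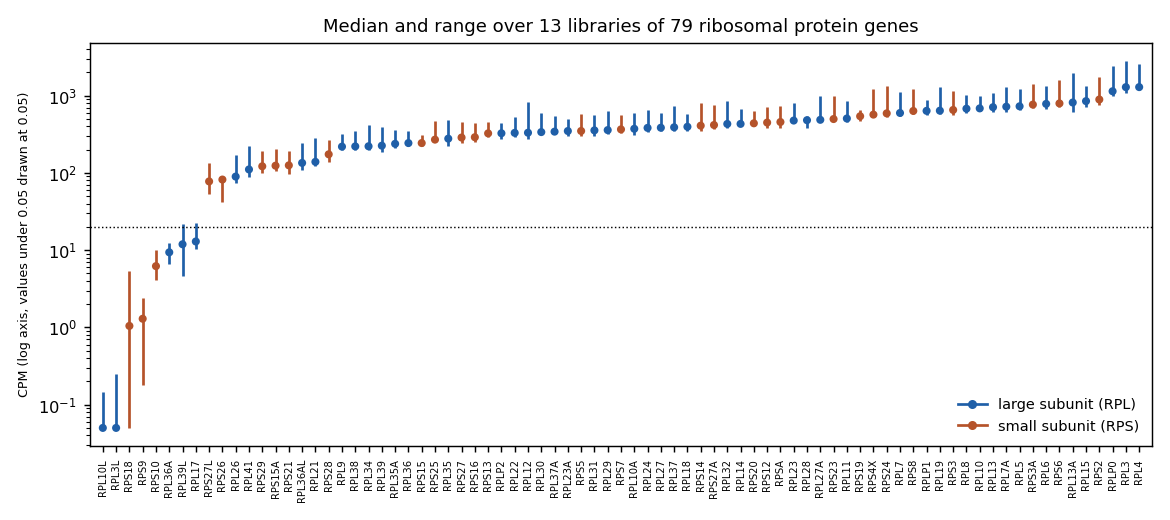
Median (point) and range (line) of CPM over the 13 libraries with counts for 79 of the 82 members, on a log axis, with the dotted line at 20 CPM. The 8 members under the line stand apart from the others.

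The 8 members with a median under 20 CPM were RPL10L, RPL3L, RPS18, RPS9, RPS10, RPL36A, RPL39L and RPL17. RPL10L had a count in 1 library only and RPL3L had at most 0.246 CPM. RPS18, RPS9, RPS10, RPL36A and RPL17 encode core proteins of every ribosome, yet RPS18 lay between 0 and 5.43 CPM, RPS9 between 0.181 and 2.42 CPM, RPS10 between 4.09 and 10.1 CPM, RPL36A between 6.59 and 12.6 CPM and RPL17 between 10.4 and 22.6 CPM. The exons of RPS10 overlap the readthrough gene RPS10-NUDT3 over 39.4% of their length, and those of RPL17 overlap RPL17-C18orf32 over 24.8%, and both readthrough genes had a median of 0 CPM. Annotated pseudogenes named for RPS18 summed to a median of 81.8 CPM, far above RPS18 itself, whereas those of RPS9 and RPL36A summed to 0 and 0.309 CPM. How reads that match several places were counted is not given in the sources used here, and its part in these low values was not tested, so the levels of these genes are uncertain. Of the 82 members, 76 have at least 1 annotated pseudogene, RPL23A the most with 91. The number of pseudogenes and the level per kilobase had a Spearman rho of 0.0951 across the 74 members with a median of at least 20 CPM. That value leaves out the 8 low members and says nothing on them, and members are not independent.

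Together the members took between 3.04% and 5.81% of the counts of a library. With vitamin C the share was 3.80, 3.09, 3.32, 3.32 and 3.36% at 0, 24, 36, 48 and 60 h, and without vitamin C it was 3.81, 3.04, 3.14, 3.10 and 3.24%. In suspended cells it was 4.38% at 60 h and 5.81% at 96 h, against 3.20% in adherent cells at 60 h. The share was thus highest at 0 h within the course and higher in both suspended libraries than in any library of the course. Total counts were 6214675 to 11058345 a library, so that the exact (Clopper-Pearson) 95% interval was as narrow as 3.07 to 3.10% for the shallowest library and 5.79 to 5.82% for the deepest, an interval that leaves out every error but that of counting, because PCR copies were not marked by molecular identifiers. Mitochondrial genes took 7.44% and 9.66% of the counts in the suspended cells at 60 and 96 h and 5.80% in adherent cells, against 4.15 to 6.08% in the course. In such bulk libraries a change in the share of a cell type and a change in the RNA of each cell cannot be told apart.

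**Figure D2:**
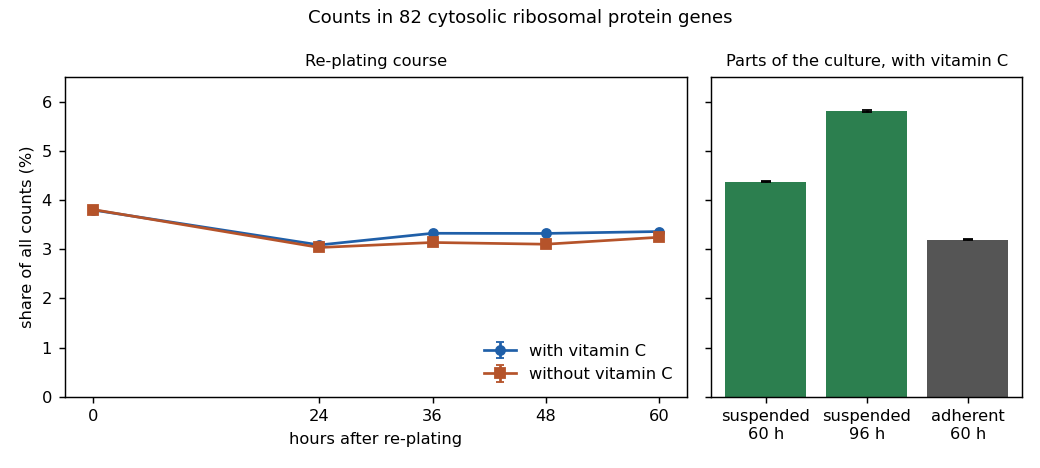
Share of all counts of a library that fell in the 82 members, by hours after re-plating with and without vitamin C (left) and in suspended and adherent cells with vitamin C (right), with 95% counting intervals. The share was lowest at 24 h in both conditions and reached 4.38% and 5.81% in the suspended libraries.

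Whether vitamin C changed the members over the course was tested with edgeR's quasi-likelihood test with the time as a factor, with Benjamini-Hochberg adjustment over 16276 genes, of which 80 were members. No member was called, against 5.87% of all genes tested. At an unadjusted p under 0.05 there were 4 members, against 3009 of the 16276 genes. DESeq2 called 2 members, 1 higher and 1 lower, against 380 higher and 515 lower of all genes. The log2 difference with minus without vitamin C was above 0 for 63 of the 80 members, against 51.63% of all genes. Its median was 0.0445 against 0.0071 over all genes. In the other scalings it was above 0 for 60 to 65 members. Of the 74 members with at least 20 CPM, 31 were higher with vitamin C at 0 h, 42 at 24 h, 66 at 36 h, 64 at 48 h and 42 at 60 h. The even spread of signs at 0 h and the excess at 36 and 48 h came from single pairs of libraries.

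RPS27L, a paralog of RPS27 and a known target of the tumour suppressor p53, had the smallest p. It had 76.0, 53.1, 74.4, 98.8 and 103 CPM with vitamin C at 0, 24, 36, 48 and 60 h, and 101, 77.5, 71.9, 119 and 136 CPM without. It was lower with vitamin C at 0, 24, 48 and 60 h and slightly higher at 36 h, with a log2 difference of -0.32 ± 0.09 (SE) and an adjusted p of 0.0585 in edgeR, and DESeq2 called it at an adjusted p of 0.0422. Its partner RPS27 differed by -0.06 ± 0.06 (edgeR adjusted p = 0.667). RPL39L, a paralog of RPL39 that in mice serves in sperm formation, had 21.8, 13.4, 16.8, 11.9 and 13.03 CPM with vitamin C at the 5 times and 15.2, 10.2, 13.99, 8.95 and 10.5 CPM without. It was higher with vitamin C at each of the 5 times, by 0.38 ± 0.13 on the log2 scale (edgeR adjusted p = 0.119), while RPL39 differed by 0.06 ± 0.07 (edgeR adjusted p = 0.705). RPL38, which in mice is needed for the translation of Hox messages, differed by 0.15 ± 0.06 (edgeR adjusted p = 0.209).

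In cells with vitamin C the summed haematopoietic markers lay at 1367 to 1803 CPM over the course, against 608 to 1024 CPM in cells without. Most of each sum was CD34, which endothelial cells also express, at 958 to 1625 CPM with vitamin C and 459 to 921 CPM without. Without CD34, left out after values were seen, the other 9 markers summed to 179 to 471 CPM with vitamin C and 96.2 to 168 CPM without. The 9 of 10 haematopoietic markers that were tested were all called higher by edgeR, with a median of 1.21. The summed mesenchymal markers lay at 399 to 889 CPM with vitamin C and 707 to 1438 CPM without, and 4 of 6 were called lower by edgeR. Their part in the members' differences was not tested.

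In the sorted cells, RPSA, which also serves as a laminin receptor, was the only member listed. Its TPM, a level per transcript length, were 1966 and 3227 with vitamin C and 1690 and 2334 without, so that the groups overlapped. The log2(TPM + 1) difference was 0.34 ± 0.38 (SE) with a limma adjusted p of 1.00 over 14421 genes. No gene of these libraries was called (0%), while 313 genes had an unadjusted p under 0.05. These values use groups from the titles, with which the descriptions disagree for some of the sorted libraries. With groups from the descriptions, limma called 37 genes higher and 119 lower, and 3088 genes had an unadjusted p under 0.05. RPSA then differed by 0.59 with an unadjusted limma p under 0.05, and was not called. Which grouping is right was not tested. In the course RPSA differed by 0.07 ± 0.06 (edgeR adjusted p = 0.558).

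In edgeR, a straight line over the hours of all libraries of the course gave no called member in either condition. With vitamin C, 0 of 80 members were called by edgeR or DESeq2, against 1.78% of all genes in edgeR. At an unadjusted p under 0.05 there were 0 members in edgeR and 2 in DESeq2, against 2274 and 2272 of all 16276 genes. Without vitamin C edgeR called 0 of 80, against 4.28% of all genes. There, 8 members had an unadjusted p under 0.05, against 3070 of all 16276 genes. The slopes were mostly below 0. A positive slope was found for 17 members with vitamin C and 8 without, against 49.2% and 48.56% of all genes. The members' medians were -0.14 and -0.21 over 60 h, against -0.01 and -0.02 over all genes. Without the 0 h pair, the medians were 0.10 and 0.07. Of the 80 members, 53 and 49 then had a positive slope, against 50.35% and 51.37% of all genes. In that fit edgeR called 2 members higher in each condition, RPL13A and RPS27L. Among all 15602 genes it called 1000 higher with vitamin C and 1347 without. The smallest p without vitamin C belonged to RPL41, the shortest ribosomal protein, with a slope of -0.92 ± 0.27 (edgeR adjusted p = 0.0859), and to RPSA with -0.50 ± 0.15 (edgeR adjusted p = 0.0889), both of which DESeq2 called, at adjusted p of 0.0429 and 0.00442. RPL41 had 190, 108, 130, 88.9 and 101 CPM at 0, 24, 36, 48 and 60 h without vitamin C, and 97.1 CPM at 0 h with it. Its high level at 0 h thus came from 1 library, which enters both its slope and its slope difference. RPL23A (-0.59 ± 0.19) and RPS16 (-0.55 ± 0.21) followed in order of p and were not called by either tool. With vitamin C the smallest p belonged to RPL4, RPSA, RPL39L and RPL24, with slopes of -0.32, -0.31, -0.74 and -0.32 and edgeR adjusted p from 0.383 to 0.43. The difference in slope between the conditions was called for no gene by edgeR (0% of 16276 genes, 473 at an unadjusted p under 0.05) and for 11 genes by DESeq2. RPL41 was the only member with an unadjusted p under 0.05, with a slope difference of 0.96 ± 0.39 and an edgeR adjusted p of 1.

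The members also differed between the first 2 times of the course. This was tested after their values had been seen, in the edgeR fit with time as a factor, over both conditions. At 24 h, 43 of 80 members were lower than at 0 h and none was higher, against 17.2% lower and 16.2% higher among all genes, and the median log2 change was -0.27 against -0.02. RPL13A, which besides its place in the large subunit takes part in silencing inflammatory messages, fell most. It had 613 CPM at 24 h and 1010 CPM at 0 h with vitamin C, and 624 CPM at 24 h and 1077 CPM at 0 h without, so that the times did not overlap. Its log2 change was -0.73 ± 0.08 with an edgeR adjusted p of 4.5e-05. RPL3, at the peptidyl transferase centre, had 1155 and 1089 CPM at 24 h with and without vitamin C, and 1574 and 1578 CPM at 0 h. Its change was -0.47 ± 0.07 (edgeR adjusted p = 0.000413).

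The fall was shared by both subunits. It was called for 24 of 48 members of the large and 19 of 32 of the small subunit tested, with medians of -0.27 in both. Other large falls were RPL39L at -0.63, RPS25 at -0.50, RPS16 and RPS29 at -0.49, and RPL23A at -0.43. Of the stalk proteins, which recruit the translation factors to the ribosome, RPLP0 fell by 0.44 and RPLP2 fell by 0.43 on the log2 scale, and RPLP1 changed by -0.16 ± 0.09 (edgeR adjusted p = 0.192). RPL5 and RPL11, which bind MDM2 when ribosome assembly is disturbed, fell by 0.31 and 0.28, RPS14, a gene lost in a form of myelodysplastic syndrome, fell by 0.37, and the X-linked RPS4X fell by 0.27. Of 19 Diamond-Blackfan genes, 8 fell, among them RPS24, RPS27 and RPS29, whereas RPS19, the gene most often mutated in that disease, changed by -0.27 ± 0.10 (edgeR adjusted p = 0.0627). RPL10, which joins the large subunit late, changed by -0.19 (edgeR adjusted p = 0.0933). RPL36AL and its partner RPL36A changed by -0.16 and 0.53 (edgeR adjusted p = 0.323 and 0.147).

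In single libraries, 68 of the 74 members with at least 20 CPM were lower at 24 h than at 0 h with vitamin C, 70 without, and 66 in both. RPS26 stood apart: it had 89.8 CPM at 24 h and 87.2 CPM at 0 h with vitamin C, and 88.6 CPM at 24 h and 54.7 CPM at 0 h without. The count of called members depended on single libraries of these times, as did that of all genes called. Leaving out any of them leaves 1 library at its time. The members' median change was -0.26 without the 24 h library with vitamin C, against -0.04 over all genes. It was -0.27 against -0.04 without the 24 h library without vitamin C. Without the 0 h library without vitamin C it was -0.23 against -0.01, and without the 0 h library with vitamin C -0.32 against -0.02.

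Genes that act with the ribosome split into groups at the same step. Of 14 other messages known to carry a TOP tract, 10 fell and none rose, with a median of -0.37, led by the histone chaperone NAP1L1 at -0.70, the RNA-binding HNRNPA1 at -0.78 and the initiation factor EIF4B at -0.72. Ribosome assembly factors moved the other way, since 29 of 38 rose and 1 fell (FBL, which methylates ribosomal RNA), with a median of 0.58, and the nucleolar helicase DDX21 rose by 1.37 ± 0.10 and RRP12 by 1.39 ± 0.14. Among all genes tested, 16.2% rose and 17.2% fell. Initiation factors rose in 10 and fell in 10 of 31, with EIF5 up by 1.17. Of 11 genes of RNA polymerase I, which makes ribosomal RNA, 3 rose, among them POLR1A and POLR1B, and 1 fell. Mitochondrial ribosomal proteins, which build the separate ribosome of that organelle, rose in 11 and fell in 5 of 75, with a median of 0.08. Elongation factors had 1 fall in 5 (EEF2) and a median of 0.07. The elongation factor EEF1D had 26.5 CPM at 24 h and 3.88 CPM at 0 h without vitamin C. With vitamin C it had 4.99 CPM at 24 h and 23.5 CPM at 0 h, so that its sign differed between the conditions. The endothelial markers summed to 10870 and 9233 CPM at 24 h with and without vitamin C, against 9009 and 7922 CPM at 0 h. They split, since 6 of 10 rose and 3 fell, with a median of 0.31. TEK had 242 and 214 CPM at 24 h with and without vitamin C, against 606 and 598 CPM at 0 h. The mesenchymal markers summed to 458 and 707 CPM at 24 h with and without vitamin C, against 889 and 969 CPM at 0 h, and 2 of 6 fell and 1 rose, with a median of -0.63. Of the haematopoietic markers 2 of 9 fell and 1 rose, and LIN28A, the only pluripotency marker tested, fell by 1.13. The part of cell composition in the step was not tested.

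**Figure D3:**
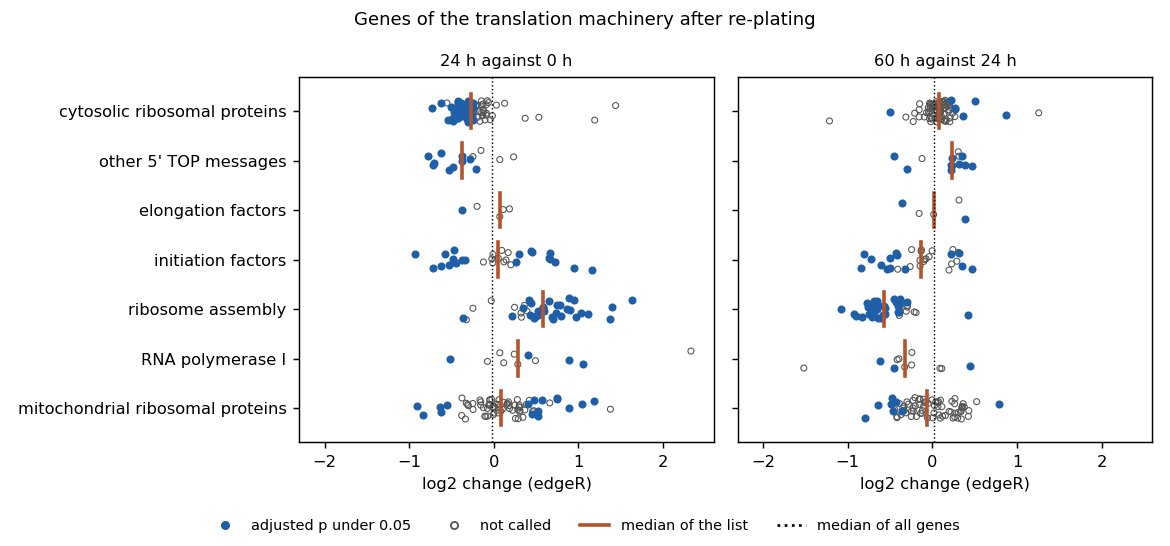
Log2 change from edgeR at 24 h against 0 h (left) and 60 h against 24 h (right), over both conditions, for each tested gene of 7 lists. Filled points passed an adjusted p of 0.05; the members' median lay at -0.27 on the left and 0.08 on the right, while ribosome assembly factors lay at 0.58 and -0.57.

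Between 24 and 60 h few members changed. This comparison was likewise added after values were seen and shares its 24 h libraries with the one before. At 60 h, 6 of 80 members were higher than at 24 h, against 12.1% of all genes, and 1 was lower, against 11.4%, with a median of 0.08 against 0.02. RPS27L rose most: it had 103 CPM at 60 h and 53.1 CPM at 24 h with vitamin C, and 136 CPM at 60 h and 77.5 CPM at 24 h without, a log2 change of 0.87 ± 0.14 (edgeR adjusted p = 0.00105). RPL13A rose by 0.51, RPS19 by 0.36, RPL12 by 0.27, RPL28 by 0.26 and RPL3 by 0.22. RPL28 lay just under the threshold, and RPL12 and RPL3 had an edgeR adjusted p of 0.0432 and 0.0451. DESeq2 called 4 members, RPS27L, RPL13A and RPS19 higher and RPS26 lower, against 1559 higher and 1539 lower of 15960 genes. RPS26 fell by 0.50 and had 67.0 and 60.1 CPM at 60 h with and without vitamin C, against 89.8 and 88.6 CPM at 24 h. The stalk genes were not called. Of the assembly factors, 29 of 38 fell and 1 rose. Of the haematopoietic markers 6 of 9 rose and 1 fell, with a median of 0.97, and without CD34 they summed to 471 and 149 CPM at 60 h with and without vitamin C, against 179 and 103 CPM at 24 h. Of the mesenchymal markers 3 of 6 rose and 1 fell, with a median of 0.89. Their part in the members' changes was not tested. The count of called members was 2 to 4 without any 1 of the 24, 36, 48 or 60 h libraries and 9 or 10 without a 0 h library.

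**Figure D4:**
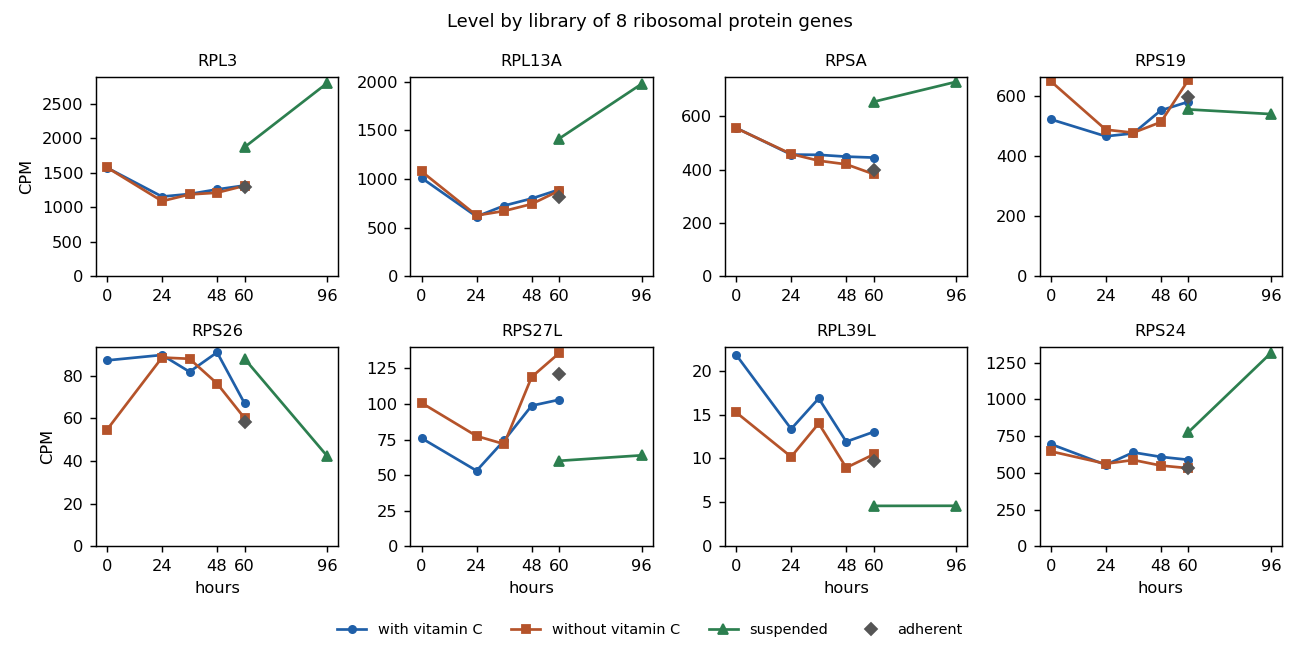
CPM of the library total of 8 members by hours, with vitamin C, without vitamin C, in suspended cells and in adherent cells, each point 1 library and each vertical axis starting at 0. RPL3, RPL13A and RPSA were highest in suspended cells, RPS27L and RPL39L were lowest or near lowest there, and RPS24 was highest at 96 h.

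Suspended cells at 60 h were set against adherent cells of the same time and condition, with 1 library each and therefore no test. Of the 75 members compared, which reached 20 CPM in either library, 73 had a log2 ratio above 0, against 57.0% of all genes compared, with a median of 0.43 against 0.14. The ratios were small and nearly all of the same sign. A ratio of at least 1.5-fold was reached by 17 members (22.7%), against 25.1% of all genes, and 1 member was that much lower, against 20.8%. At 1.2-fold, a limit added after values were seen, 64 members were higher, against 43% of all genes. With TMM scaling the median was 0.33 against 0.04, so that the members stood 0.292 above all genes in both scalings. Only 4 members then passed 1.5-fold higher, against 20.2% of all genes.

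RPL13A had the largest ratio, with 1414 CPM (95% Poisson interval 1387 to 1443) in suspended and 814 CPM (794 to 834) in adherent cells. RPSA had 654 CPM in suspended and 398 CPM in adherent cells, RPL4, which lines the exit tunnel, 1865 and 1168 CPM, and RPL10A, RPL6 and RPL39 were 1.60, 1.59 and 1.59-fold higher. RPL17 was 1.70-fold higher, at the uncertain levels given above. At the other end, RPS27L had 60.1 CPM (54.5 to 66.1) in suspended and 121 CPM (114 to 129) in adherent cells, which was 0.499-fold, and RPS19 had 556 and 597 CPM. RPL28, with 496 CPM in suspended and 495 CPM in adherent cells, was level, and RPL31, RPS21, RPL10, RPS20 and RPS27 were 1.07 to 1.14-fold higher. RPL39L was under 20 CPM in both, with 4.60 CPM in suspended and 9.73 CPM in adherent cells, while its partner RPL39 had 297 and 186 CPM.

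The large subunit had 11 and the small subunit 6 members past 1.5-fold higher, with medians of 0.46 and 0.42. Of the Diamond-Blackfan genes 3 of 18 passed it, and none of the 3 stalk genes did. At least 1.5-fold higher were 27 of 38 assembly factors, 31 of 66 mitochondrial ribosomal proteins and 10 of 30 initiation factors, with medians of 0.88, 0.57 and 0.49, beside 25.1% of all genes. With TMM scaling, applied to these lists after values were seen, the counts were 27, 21 and 8, beside 20.2% of all genes. The nucleolar proteins NPM1 and NCL had 1522 and 1177 CPM in suspended cells, against 643 and 600 CPM in adherent cells. The 10 endothelial markers summed to 2318 CPM in suspended and 10770 CPM in adherent cells, and the 10 haematopoietic markers to 2355 CPM in suspended and 1284 CPM in adherent cells, with PTPRC at 0 in adherent cells. Without CD34, which had 334 CPM in suspended and 1113 CPM in adherent cells, the other 9 summed to 2021 CPM in suspended and 171 CPM in adherent cells. The part of this difference in cell type in the ratios was not tested.

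**Figure D5:**
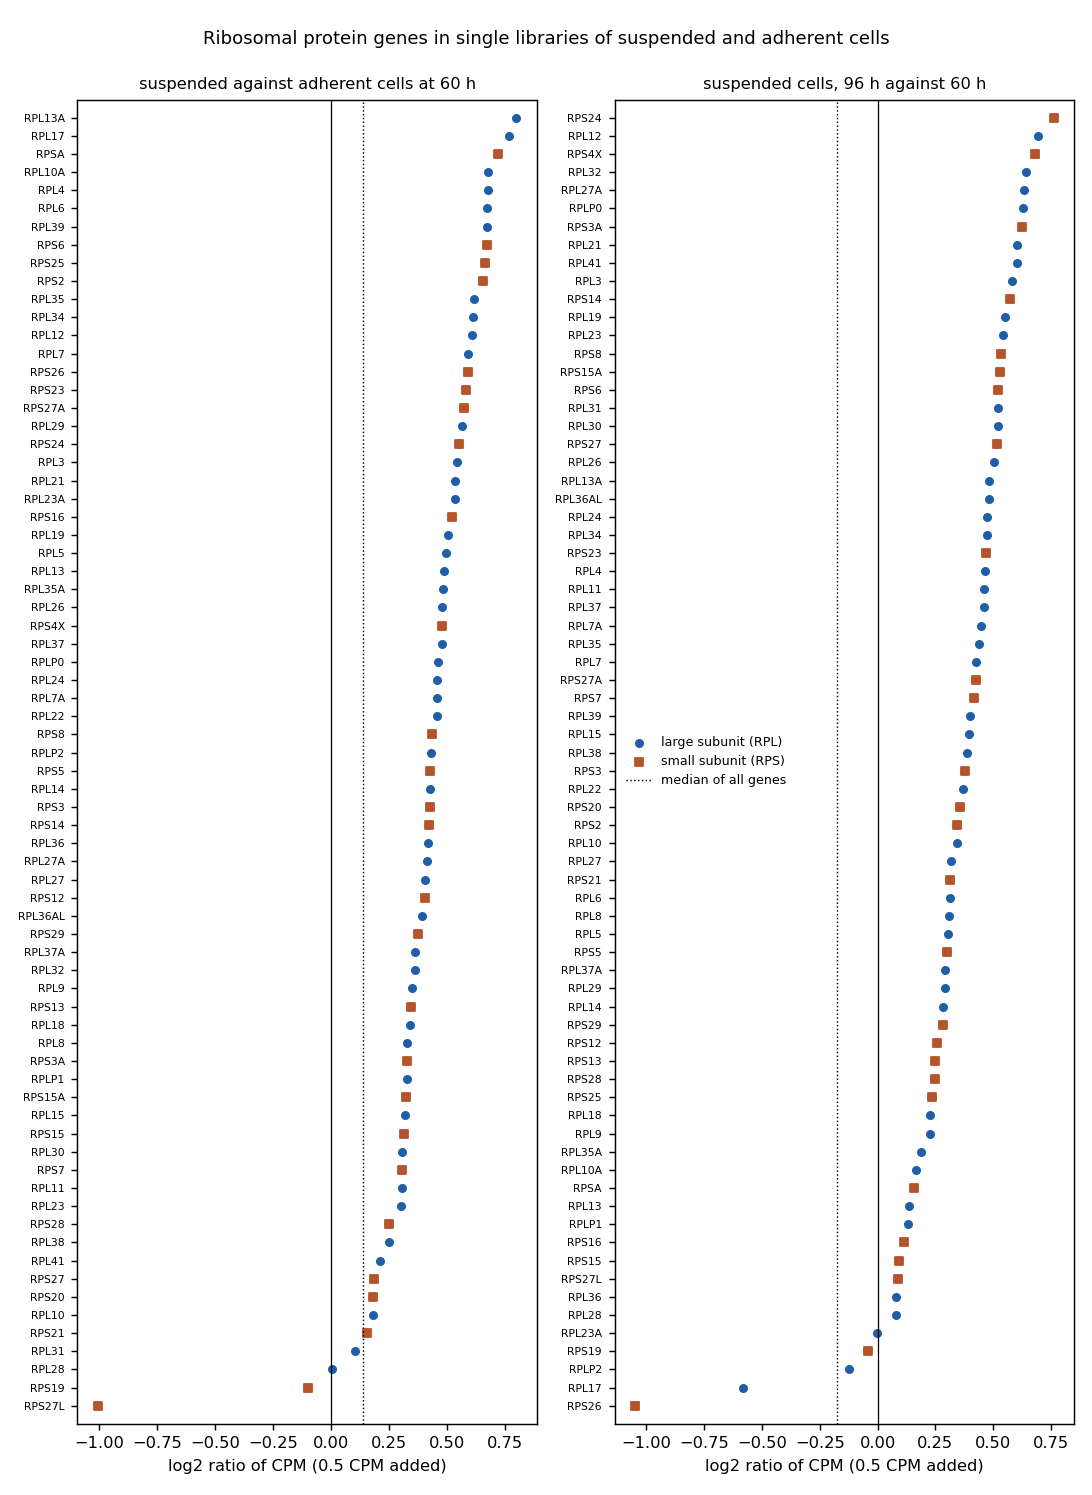
Log2 ratio of CPM for 72 of the 75 members compared, in suspended against adherent cells at 60 h (left) and in suspended cells at 96 h against 60 h (right), each from 1 library a side. Of all 75, 73 lie above 0 and 71 above the dotted median of all genes on the left, where RPS27L is lowest, and 69 lie above 0 and 72 above that median on the right, where RPS26 is the lowest drawn.

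At 96 h in suspension the members were higher still relative to other genes than at 60 h, again in 1 library each with no test. Of 75 members compared, 69 had a ratio above 0, against 35.3% of all genes, and the median log2 ratio was 0.38 against -0.17. At least 1.5-fold higher at 96 h were 10 members (13.3%), against 8.76% of all genes, and 2 were lower, against 18.7%. At 1.2-fold, 52 were higher, against 19% of all genes. TMM scaling moved the median of all genes to -0.03 and that of the members to 0.52. With TMM scaling 31 members were past 1.5-fold higher, against 12.4% of all genes. The members stood 0.549 to 0.551 above all genes in the 3 scalings tried.

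RPS24, a Diamond-Blackfan gene, had the largest ratio, with 1316 CPM (1295 to 1338) at 96 h and 777 CPM (756 to 798) at 60 h. RPL12 had 814 and 504 CPM at 96 and 60 h, RPS4X 1208 and 754 CPM and RPLP0 2417 and 1564 CPM. RPL32, RPL27A and RPS3A were 1.56, 1.55 and 1.54-fold higher. RPS26, also a Diamond-Blackfan gene, was lower, with 42.3 CPM (38.6 to 46.3) at 96 h and 88.0 CPM (81.1 to 95.2) at 60 h. RPL17 was at 0.669-fold, RPLP2 at 0.918-fold and RPS19 at 0.972-fold. RPL23A and RPL28 were level, at 0.999 and 1.06-fold, and RPS27L had 63.9 CPM at 96 h and 60.1 CPM at 60 h. The members of the stalk thus differed, since RPLP0 was 1.54-fold and RPLP2 0.918-fold of its level at 60 h.

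No assembly factor was 1.5-fold higher at 96 h and 9 of 38 were lower, with a median of -0.32, beside 18.7% of all genes lower. With TMM scaling 3 were lower, beside 12.7% of all genes. Of 66 mitochondrial ribosomal proteins 2 were lower and 1 higher. NPM1 had 1487 CPM at 96 h and 1522 CPM at 60 h, whereas the elongation factor EEF1A1 had 11970 and 9021 CPM. Endothelial markers summed to 1116 CPM at 96 h and 2318 CPM at 60 h. Haematopoietic markers summed to 3635 CPM at 96 h and 2355 CPM at 60 h, or to 3486 and 2021 CPM without CD34. The haematopoietic markers split, since 4 of 9 compared were at least 1.5-fold higher and 2 lower, with a median log2 ratio of -0.36. Among all genes, 8.76% were that much higher and 18.7% lower. ITGA2B had 1896 CPM at 96 h and 774 CPM at 60 h, whereas MYB had 122 and 231 CPM. The part of these markers in the members' ratios was not tested.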

How the data were processed

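RNA of 17 libraries was measured, prepared per the labels with Trizol and a TruSeq kit. Per the submitters' processing notes, the builds were hg38 and GRCh38 and the tools included HTSeq 0.6.0, HISAT2 2.0.4, DESeq 1.18.1 and SAMtools 1.3.1, whose roles are not stated. The authors deposited raw read counts for 13 libraries, and TPM values for the 4 sorted libraries, read as TPM from their column sums, with unknown depth. Strand and annotation are not given in the sources used here. Genes were named from GENCODE release 29.

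The tests on counts used edgeR 4.0.16 (quasi-likelihood, TMM, filterByExpr; R 4.3.3), TPM with limma 3.58.1 (trend, log2(TPM + 1), at least 1 TPM in 2 libraries, which understates changes of low genes), two-sided, Benjamini-Hochberg adjusted over all genes, threshold 0.05. The SE came from the F statistic. CPM are of the library total, log2 changes TMM scaled, and single-library ratios had 0.5 CPM added. Pyrimidine tracts were searched in RefSeq promoters. The code was tested on simulated data.

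Groups came from titles, with which the descriptions disagree for 2 sorted libraries. Members and lists were chosen with earlier results of these data known. Named were up to 10 called members in each direction or the 4 with the smallest p, the 8 largest ratios in each direction for single libraries, a set list of paralogs and disease genes, all low members, and up to 3 genes of other lists, but some that the rule gives are not reported here, nor drawn. Alternatives covered scaling, DESeq2 1.42.0, filters, time terms, pseudocounts, limits and left-out libraries.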

Additional observations from a re-analysis of the deposited data

Results flagged for a closer look

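Annotated pseudogenes of ribosomal protein genes, 1132 in the count tables, are outside the 82 members and took 0.301% of the counts in suspended cells at 60 h and 0.395% at 96 h, against 0.201% in adherent cells at 60 h. These values stood out because a signal in genes outside the members was higher than in the adherent library. The members' own share was 4.38% and 5.81% in the suspended libraries and 3.20% in the adherent library, so both shares were higher in suspended cells. In the course the pseudogene share was 0.192 to 0.25%.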

How the results depend on the processing

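For vitamin C over the course, 2 members were called by DESeq2 and 2 without a filter, and all genes called (955) became 1591 without a filter and 28 with no term for time. With hours, 2 members were called in each condition without the 0 h pair and 2 without vitamin C by DESeq2. All genes called with hours were 289 with vitamin C, against 712 by DESeq2, 438 unfiltered, 1814 without the 0 h pair and 92 by time rank, and 697 without vitamin C, against 1284 by DESeq2 and 2545 without the 0 h pair. For the slope difference, 11 genes were called by DESeq2 and 1 without the 0 h pair. At 60 h against 24 h DESeq2 called 4 members. Leaving out single libraries gave 0 to 1 members and 505 to 1209 genes for vitamin C, 0 members and 9 to 624 genes for hours with vitamin C, 0 members and 141 to 1025 genes for hours without, 0 and 0 for the slope difference, 13 to 45 members and 2961 to 5492 genes at 24 h against 0 h, and 2 to 10 members and 1734 to 4541 genes at 60 h against 24 h. In the sorted cells it gave 0 members and 0 to 1 genes, and the descriptions' groups called 156 genes.

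Suspended against adherent cells had 18 members past the limit, and 5 with TMM, 1 at 2-fold and 65 at 1.2-fold (all genes 4141, 2218 and 6668 at 1.5, 2 and 1.2-fold). At 96 h against 60 h these were 12, and 33, 2 and 55 (all genes 2334, 1013 and 5180). The members' share was 1.37-fold in suspended over adherent cells (1.39 without mitochondrial counts, 1.38 with pseudogenes), 1.33-fold at 96 h over 60 h (1.36 without mitochondrial counts) and 0.805-fold at 24 h over 0 h (0.795). Signs reversed for RPS16 over hours without vitamin C (0.003 without the 0 h pair, and -0.826 to 0.0013 when libraries were left out singly, highest without the 0 h library without vitamin C). Without that same library they reversed for the slope differences of RPS16 (-0.188 to 0.844 over left-out libraries) and RPL23A (-0.0892 to 0.512). RPSA in sorted cells ranged over -0.0148 to 0.70, with the lowest value when the second library with vitamin C was left out. The cause was not tested.

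The sorted libraries share replicate numbers 1 and 2, but no label says that a number marks a shared culture. With the replicate block 0 genes were called and the RPSA difference stayed at 0.34 (limma adjusted p = 0.659). Depth does not limit most members, but it limits RPL10L, RPL3L, RPS18 and RPS9.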
